A study of Mus musculus with 8 samples.

Results

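Double-positive mouse embryonic stem (ES) cells, which carried both the Venus reporter and the surface antigen SSEA-1 (V+S+), were compared with double-negative cells from the same dishes, which carried neither (V-S-). The samples were chosen by their labels, 1 V+S+ and 1 V-S- sample from each of the ES clones 5.1 and 16.1, which gave 4 of the 8 samples in the series. The other 4 samples, V+S- and V-S+ from the same clones, entered the estimate of the spread and served as a second pair of fractions that shares no array with the first. All cells were 129/Ola ES cells of the HV line, in which a tagged Hex cDNA followed by an artificial ribosome entry site and Venus had been knocked into the Hex locus, in a parental line that carries the BirA biotin ligase, and from which the selection cassette had been excised. The cells were plated without feeders at 200000 cells/ml, kept in medium with LIF for 24 h and sorted by flow cytometry on Venus and SSEA-1. Each clone is a single targeted line with 1 sample per fraction, and the 4 fractions of a clone shared 1 slide, so effects of clone and of slide cannot be told apart. No label says that the 2 samples of a fraction were anything more than these 2 clones. With clone as a term, the p-values below measure how unevenly the fractions differed in the 2 clones, pooled over all 4 fractions. They do not measure the spread between clones or between repeat cultures.

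ES cells are a mixed population in which cells drift between states while the culture as a whole self-renews. Hex is a homeobox gene switched on early in the primitive endoderm (PrEn), the extraembryonic lineage that arises beside the epiblast in the inner cell mass, and its reporter marks cells with low levels of PrEn transcripts. SSEA-1 is a fucosylated sugar epitope found on undifferentiated mouse ES cells and lost as they differentiate. The V+S+ fraction therefore carries a mark of each kind, and the V-S- fraction carries neither.

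RNA of each fraction was labelled with Cy3 and hybridised against a Cy5-labelled pool of mouse cell line RNA. Every value below is a log2 ratio of sample over that pool, averaged over 2 scans of 1 array, and a change is the V+S+ value minus the V-S- value. A ratio says how a sample stands against the pool, so levels of different genes were not set against each other. The array carried 42006 distinct probes, and 29484 of them, with Cy3 clearly above background in each scan of 1 fraction or more, were tested. Between 28316 and 29671 probes were well above background on each array, and repeat scans differed with an SD of 0.074 to 0.0883 on the log2 scale. The median Cy3 signal over background was lowest in V-S- in each clone, at 2.36 and 2.55, against 2.57 and 2.78 in V+S+, and its part in the results was not tested. In bulk RNA, fewer cells of a type and less RNA per cell cannot be told apart.

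The scanner files pair no probe with a gene. Names came from the study's supplementary list of probes and symbols, of which 1998 rows could be read, and the other probes were counted but not named. The study chose that list on these same arrays, so the share of named probes that changed is no independent evidence. The Hex probe has no row in the part of the list that could be read, and the reporter was not checked in these samples. Fut9, which makes the sugar epitope that SSEA-1 antibodies see, was looked up for that reason, outside the naming rule. Its log2 ratio was 0.72 in V+S+ of clone 5.1 and 0.88 in V+S+ of clone 16.1, against 0.41 and 0.62 in the V-S- samples, a change of 0.29 ± 0.06 (SE; limma adjusted p = 0.0138) that did not reach 1.5-fold.

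In V+S+ cells 1402 probes were higher and 817 were lower than in V-S- cells (limma with clone as a term, Benjamini-Hochberg FDR of 0.05 and more than 1.5-fold). These were 4.76% and 2.77% of the probes tested. Each of the called probes moved the same way in clone 5.1 and in clone 16.1, which is largely a result of the calling rule, since it favours probes whose clones agree. Of these, 278 of the higher and 242 of the lower probes changed more than 2-fold. The median change of the higher probes was 0.66 in clone 5.1 and 0.92 in clone 16.1, and that of the lower probes was -0.55 and -1.05. Of the higher probes 1295 changed more in clone 16.1, as did 773 of the lower probes. Across all probes the changes of the 2 clones correlated with r = 0.85, a description over probes that share arrays and are not independent.

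The calls rested on pairing the fractions by clone. Without the clone term limma called 0 probes in either direction, with a lowest adjusted p of 0.0512 and 6609 probes at an unadjusted p under 0.05. A test without variance moderation also called 0, with 9445 probes at an unadjusted p under 0.05. The lower probes leaned on clone 16.1: 211 were called without its V+S+ sample and 218 without its V-S- sample, against 1262 without V+S+ of clone 5.1. The higher probes ranged from 859 without V+S+ of clone 16.1 to 1905 without V+S+ of clone 5.1. Higher probes made up 63.2% of all calls, and 78.2% where arrays were centred on their median in place of loess.

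**Figure D1:**
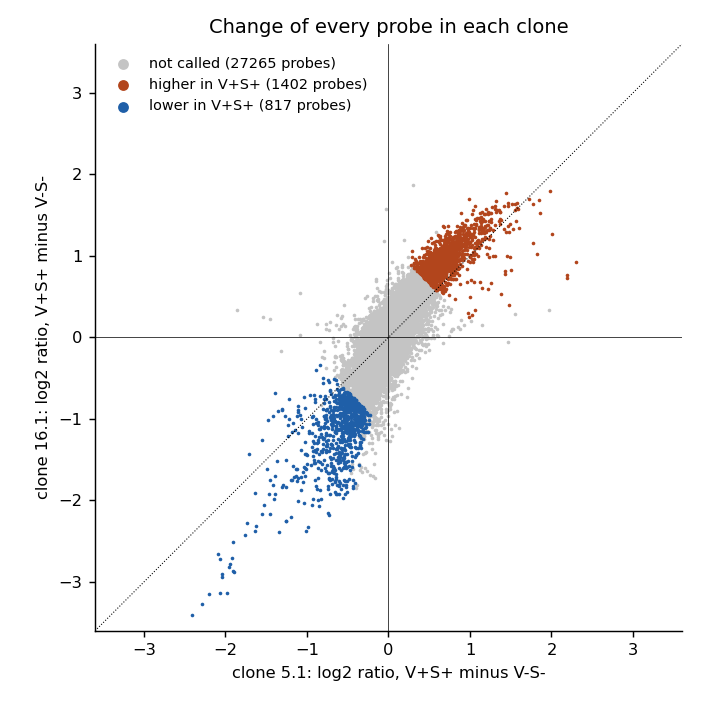
Change of each of the 29484 tested probes, V+S+ minus V-S-, as a log2 ratio, in clone 5.1 (horizontal) and clone 16.1 (vertical). Orange points are the 1402 probes called higher in V+S+, blue points the 817 called lower, grey points the rest, and the dotted line marks equal change. Called probes lie in the upper right and lower left, and most blue points lie below the dotted line, where clone 16.1 changed more.

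Among the named probes 663 of 1998 (33.2%) were higher and 271 (13.6%) were lower, with a median change of 0.35, against 0.01 over all probes tested. Counts of list members below are to be read against these shares. The largest named rises were spread over transport, sugar modification, the cytoskeleton and receptors. Slc39a8, a zinc and manganese transporter, stood at 0.95 and 1.42 in V+S+ of clones 5.1 and 16.1 and at -0.77 and -0.28 in V-S-. It rose by 1.71 ± 0.12 (SE), or 3.27-fold (adjusted p = 0.00126), and its lowest V+S+ value lay well above its highest V-S- value. Galnt3, an enzyme that starts mucin-type O-linked sugar chains, rose by 1.58 ± 0.14 (adjusted p = 0.00154). The leukotriene receptor Cysltr1 rose by 1.58 and the growth hormone receptor Ghr by 1.56. Lgals7, which encodes a sugar-binding galectin, rose by 1.52, and the kinase gene Stk32c by 1.46. The unannotated transcript 9130008F23Rik rose by 1.44. All 12 named rises with the largest change were called with an adjusted p between 0.00126 and 0.00248. In each the V+S+ samples lay above the V-S- samples, as 28.8% of all probes did, and the choice of the largest changes favours such genes.

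**Figure D2:**
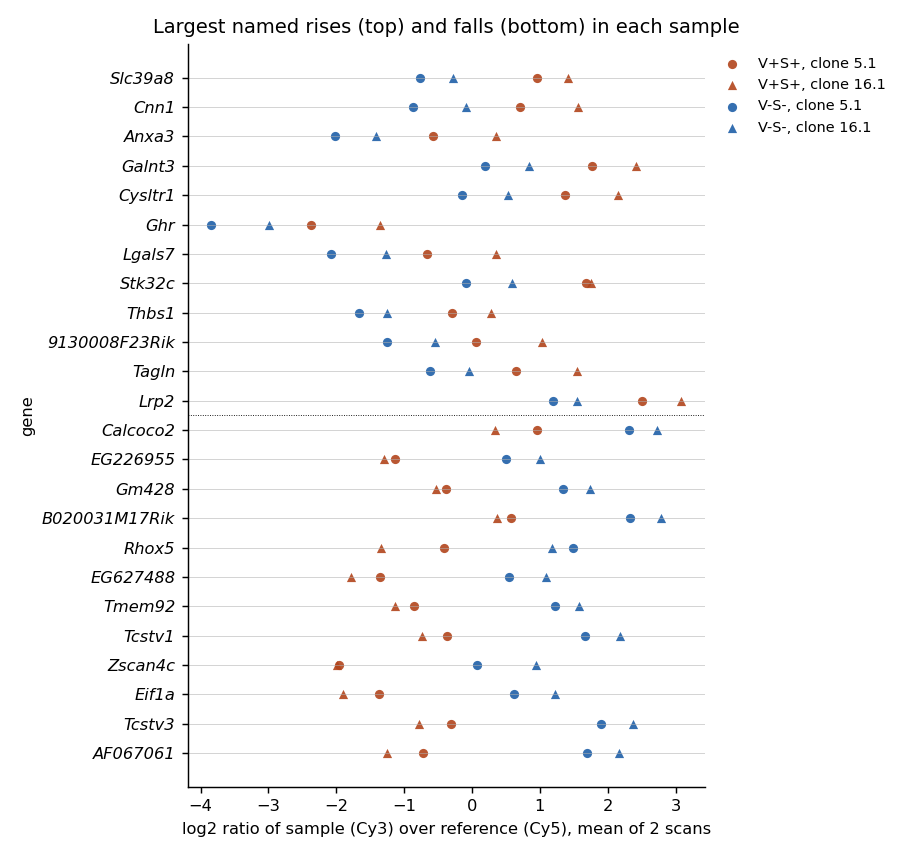
Log2 ratio of sample over reference for the 12 named genes with the largest rises (top) and the 12 with the largest falls (bottom), 1 point per sample; orange is V+S+, blue V-S-, circles clone 5.1 and triangles clone 16.1. In all 24 genes the V+S+ and V-S- points do not overlap, and the falls of AF067061 and Tcstv3 are wider than any rise.

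Actin and contractility genes had the most members called higher of the 21 lists, and also the most named members. Of 31 named members 25 were higher, 2 were lower and 4 did not pass, with a median change of 0.88. Of all named probes 33.2% were higher. The share that rose was larger in the YAP and SRF list (15 of 16) and in the basement membrane list (9 of 11). Cnn1, which encodes the actin-binding protein calponin, read 0.70 in V+S+ of clone 5.1 and 1.56 in V+S+ of clone 16.1. In V-S- it read -0.88 and -0.08, so the fractions did not overlap. Cnn1 rose by 1.61 ± 0.10 (SE; adjusted p = 0.00126). Tagln (transgelin, another calponin-family protein of smooth muscle) rose by 1.43 ± 0.12, Lpp by 1.28, Cald1 (caldesmon) by 1.25 and Myl9 (a regulatory myosin light chain) by 1.24. Of 4 tropomyosin genes Tpm1 rose by 1.09, Tpm4 by 0.98 and Tpm2 by 0.88, while Tpm3 changed by 0.54 and was not called. Vcl (vinculin) rose by 0.89. The 2 members that fell were Lima1, which bundles actin, by 0.68, and Myl7, an atrial myosin light chain, by 0.63. Both calls were lost without V+S+ or V-S- of clone 16.1: Lima1 changed by -0.38 (adjusted p = 0.168) without V+S+ and by -0.50 (adjusted p = 0.213) without V-S-, and Myl7 by -0.47 (adjusted p = 0.174) and -0.38 (adjusted p = 0.129). The Lima1 call was also lost without either V+S- sample (adjusted p = 0.0596) and with median centring (-0.49), and neither gene was called from the V+S+ and V-S- samples alone (adjusted p = 0.0615 and 0.0547). From scanner-processed signals Myl7 changed by -1.09 (adjusted p = 0.0568) and Lima1 by -0.72 (adjusted p = 0.0758), and from the deposited ratios by -1.07 (adjusted p = 0.0505) and -0.70 (adjusted p = 0.067).

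Genes that respond to the co-activator YAP or to serum response factor (SRF), which turn on cytoskeletal and matrix genes, rose almost throughout the list. Of 16 named members 15 were higher and none was lower, and the 1 that did not pass, Vgll4, changed by 0.54. The median change was 0.93, and 33.2% of all named probes were higher. Cyr61, a secreted matrix protein and a standard YAP target, read -1.06 and -0.61 in V+S+ against -2.31 and -1.94 in V-S-, for clones 5.1 and 16.1. It rose by 1.29 ± 0.11 (SE; adjusted p = 0.0014). F3, the tissue factor that starts clotting, read 0.64 and 1.10 against -0.36 and -0.25 and rose by 1.17 ± 0.14. Ankrd1, a muscle ankyrin-repeat protein, rose by 1.11, and Ctgf, the relative of Cyr61, by 1.06. The pathway's own parts were on the list as well, and Wwtr1 (TAZ, the partner of YAP) rose by 0.64, the kinase gene Lats2 by 0.59 and the DNA-binding factor gene Tead3 by 0.82. Without V-S- of clone 16.1, 10 of the 16 were called, and without V+S+ of clone 16.1, 11 were.

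Promoters of these groups are shown because TEAD factors, the DNA-binding partners of YAP, recognise GGAATG, and SRF binds the CArG box. The 250 bases before the annotated start of each gene were read from RefSeq (GRCm38.p6) and searched for GGAATG on both strands (CATTCC on the other) and for the CArG box. GGAATG occurred in 9 of 13 promoters of the YAP and SRF responsive genes that rose and had an entry (69.2%), in 7 of 21 of the actin and contractility genes that rose (33.3%), and in 12.6% of all 27025 promoters of that length. A CArG box was in 4 of the 21 actin and contractility promoters (19.0%), in 0 of the 13 others and in 1.40% of all promoters. A match is a description of letters and not a bound site. The YAP and SRF list was made of genes known to respond to these factors or to belong to the pathway. Its share of GGAATG is therefore no independent evidence about the change in V+S+. In the promoters below, GGAATG or CATTCC and the CArG box are in capitals.
Cyr61 (now Ccn1), chr3:145649986-145650235, minus strand: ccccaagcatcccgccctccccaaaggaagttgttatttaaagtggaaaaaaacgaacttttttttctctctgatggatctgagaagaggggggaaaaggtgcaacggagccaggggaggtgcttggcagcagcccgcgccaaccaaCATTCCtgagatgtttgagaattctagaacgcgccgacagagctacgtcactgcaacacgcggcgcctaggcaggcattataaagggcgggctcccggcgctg
Ankrd1, chr19:36119845-36120094, minus strand: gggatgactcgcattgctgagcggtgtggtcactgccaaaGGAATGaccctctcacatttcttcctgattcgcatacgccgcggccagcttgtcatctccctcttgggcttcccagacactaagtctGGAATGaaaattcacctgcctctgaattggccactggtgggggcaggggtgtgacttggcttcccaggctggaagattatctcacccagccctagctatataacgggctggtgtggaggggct
Vcl, chr14:20929148-20929397, plus strand: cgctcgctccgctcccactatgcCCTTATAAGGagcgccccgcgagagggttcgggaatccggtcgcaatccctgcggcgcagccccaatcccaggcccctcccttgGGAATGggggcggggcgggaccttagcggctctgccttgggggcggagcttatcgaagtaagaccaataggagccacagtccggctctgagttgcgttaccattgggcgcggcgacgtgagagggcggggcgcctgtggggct
Myl9, chr2:156775214-156775463, plus strand: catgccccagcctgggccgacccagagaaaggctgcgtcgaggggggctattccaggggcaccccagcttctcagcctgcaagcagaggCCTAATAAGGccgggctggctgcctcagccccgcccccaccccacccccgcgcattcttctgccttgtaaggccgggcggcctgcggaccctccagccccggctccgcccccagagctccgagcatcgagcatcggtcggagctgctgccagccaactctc
The Cyr61 promoter held 1 match, 103 bases before the start, and the Ankrd1 promoter held 2, at 210 and 123 bases. The Vcl promoter held GGAATG 143 bases and a CArG box 227 bases before the start, and Myl9 held a CArG box at 161 bases and no GGAATG.

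Keratins and junction genes rose with them. Of 22 named members 14 were higher, 1 was lower and 7 did not pass, with a median change of 0.78. Of all named probes 33.2% were higher and 13.6% lower. Krt19, a keratin of simple epithelia, read 0.78 and 1.36 in V+S+ and -0.47 and -0.09 in V-S-, and rose by 1.35 ± 0.08 (SE; adjusted p = 0.00126). Krt18 and Krt8, which pair to form the first keratin filaments of the embryo, rose by 1.23 and 1.22. The desmosome genes Dsp and Dsc2 rose by 1.06 and 1.05, and the tight-junction genes Ocln and Cgn by 0.98 and 0.85. Krt23, which was well above background in 3 of the 4 V+S+ scans and in all V-S- scans, went the other way, from 0.46 and 0.70 in V-S- to -0.65 and -0.48 in V+S+, and fell by 1.14 ± 0.09 (adjusted p = 0.00137). Vim, the intermediate filament gene of mesenchyme, changed by 0.42 and did not pass.

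Annexins, S100 proteins and caveolae genes act at the inner face of the cell membrane. They were higher in 11 of 15, lower in 1 and not called in 3, with a median of 0.72. Among all named probes 33.2% were higher. Anxa3 read -0.57 and 0.35 in V+S+ against -2.02 and -1.41 in V-S- and rose by 1.61 ± 0.11 (SE; adjusted p = 0.00126). Anxa1, an annexin induced by glucocorticoids, rose by 1.33 ± 0.11. S100a14 fell by 0.74 ± 0.10, with 0.33 and -0.08 in V+S+ below 0.93 and 0.80 in V-S-.

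Genes of the FGF and ERK pathway and early response genes were higher in 16 of 23 named members and lower in none. Their median was 0.81, and 33.2% of all named probes were higher. FGF signalling through ERK is known to drive cells of the inner cell mass toward PrEn, and its feedback inhibitors report how active it is. Phlda1, which ERK activity induces, read 0.04 and 0.56 in V+S+ and -1.09 and -0.81 in V-S- and rose by 1.25 ± 0.08 (SE; adjusted p = 0.00126). The ERK phosphatase genes Dusp5, Dusp6 and Dusp4 rose by 1.03, 0.88 and 0.78, and Spred1, a further brake on the pathway, by 0.65. Fgf5, the ligand that marks the primed epiblast, rose by 1.03. Among transcription factor genes Atf3 rose by 1.21 ± 0.09, Jun by 1.05 and Fosl2 by 1.02. Etv5, an Ets factor gene also known as an ERK target, changed by -0.42, and Fos by 0.31, and neither passed.

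Genes of the TGF-beta pathway and the Id genes, which encode inhibitors of differentiation, were higher in 12 of 19 and lower in none (median 0.66). The share higher among all named probes was 33.2%. Id2 read -0.50 and 0.07 in V+S+ and -1.35 and -1.04 in V-S- and rose by 0.98 ± 0.11 (SE; adjusted p = 0.00235). Id1 read 0.63 and 1.10 against -0.01 and 0.16 and rose by 0.79 ± 0.10 (adjusted p = 0.00302). Tgfb1i1, a focal adhesion protein that TGF-beta induces, rose by 1.16, and Ltbp1, which anchors latent TGF-beta in the matrix, by 1.01. The ligand genes Inhba and Tgfb2 rose by 0.97 and 0.92, and the receptor gene Tgfbr2 by 0.66. NF-kappaB targets and cytokine genes were higher in 15 of 23, and none was lower (median 0.71), with 8 higher without V+S+ or without V-S- of clone 16.1. Tnfaip3, which encodes the feedback inhibitor A20, read -0.69 and -0.09 in V+S+ against -1.77 and -1.56 in V-S- and rose by 1.28 ± 0.12. Tnfrsf12a, the TWEAK receptor gene, rose by 1.03 ± 0.13. Of 13 Wnt pathway genes 5 were higher and 1 was lower (median 0.57), a share of rises near the 33.2% of all named probes, and 8 were higher from scanner-processed signals or the deposited ratios. The ligand genes Wnt9a and Wnt4 rose by 1.22 and 1.15, and Porcn, whose product attaches the lipid that Wnts need for secretion, fell by 0.71 ± 0.17 (adjusted p = 0.0264). The Porcn call was lost with median centring (-0.56), from the V+S+ and V-S- samples alone (adjusted p = 0.0504), from scanner-processed signals and the deposited ratios (adjusted p = 0.0675 and 0.0586), without either V+S- sample (adjusted p = 0.0525) and without V+S+ or V-S- of clone 16.1 (change of -0.42 and -0.55, adjusted p = 0.154 and 0.187).

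Matrix genes and the enzymes that cut matrix were higher as well, in shares above the 33.2% of all named probes. Of 11 basement membrane genes 9 were higher and none was lower (median 0.63), and of 24 proteases and inhibitors 14 were higher and none was lower (median 0.63). Without V+S+ of clone 16.1 these counts were 4 and 9, and without V-S- of clone 16.1 the basement membrane count was 5. Pxdn, peroxidasin, which crosslinks collagen IV, read 0.28 and 1.16 in V+S+ and -0.76 and -0.23 in V-S- and rose by 1.22 ± 0.10 (SE). Lama4 and Lamb3, which encode laminin chains, rose by 0.96 and 0.63. The collagen IV genes Col4a2 and Col4a1 rose by 0.62 and 0.61. Prss23, a serine protease gene, rose by 1.27 ± 0.15 and Adam8, a membrane metalloprotease gene, by 1.19 ± 0.10, with V+S+ above V-S- in both clones. The urokinase gene Plau and its receptor gene Plaur rose by 0.71 and 1.14.

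Few of the 26 listed PrEn genes could be named. Of 8 named members 3 were higher, none was lower and 5 did not pass, with a median of 0.41, and the share that rose was near the 33.2% of all named probes. From scanner-processed signals 4 were higher (median 0.73), and from the deposited ratios 5 were (median 0.76). A separate panel of 10 PrEn markers had 7 named. Of these 4 were higher (Lrp2, Col4a1, Col4a2 and Sparc), none was lower and 3 were not called (Gata6, Sox7 and Dab2). The mean log2 ratio of the panel was -0.84 and -0.41 in V+S+ and -1.24 and -1.18 in V-S-. Lrp2, the endocytic receptor megalin of visceral endoderm, read 2.50 and 3.08 in V+S+ and 1.19 and 1.54 in V-S- and rose by 1.43 ± 0.12 (SE; adjusted p = 0.00137). Cited1, a transcriptional co-activator, rose by 1.03, and Serpinh1, the collagen chaperone, by 0.97. Of the transcription factors that specify PrEn, Gata6 and Sox7 had a named probe and were not called. Gata6 read -2.45 and -2.50 in V+S+ and -2.43 and -2.56 in V-S-, and the fractions overlapped (change of 0.02 ± 0.11, adjusted p = 0.903). Sox7 read -0.17 and 0.44 against -0.31 and -0.20, a change of 0.39 ± 0.14 (adjusted p = 0.0744). Dab2, an endocytic adaptor of the endoderm, changed by 0.44 ± 0.11 (adjusted p = 0.0306), under 1.5-fold. It was called higher from scanner-processed signals (0.67, adjusted p = 0.0462) and from the deposited ratios (0.69, adjusted p = 0.0359).

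Markers of other cell types were read beside these groups. All 6 fibroblast or mesenchyme markers had a probe and each was well above background on all 4 arrays. Of these 3 were higher in V+S+ (Lox by 0.64, Prrx2 by 0.59 and Twist2 by 0.59) and Col1a2, Postn and Col6a3 were not called, at 0.50, 0.53 and 0.08. Their mean log2 ratio was -4.24 and -3.66 in V+S+ and -4.51 and -4.38 in V-S-. Their part in the rise of matrix and actin genes was not tested. The Twist2 call was lost without V+S+ of clone 16.1 (0.43, adjusted p = 0.203) and without V-S- of clone 16.1 (0.34, adjusted p = 0.163), from the V+S+ and V-S- samples alone (adjusted p = 0.0638) and in the first scan, where it was under 1.5-fold (0.58). In the wider list of fibroblast and mesenchyme genes 5 of 11 were higher, against 33.2% of all named probes, led by Thbs1 (thrombospondin), which read -0.29 and 0.29 in V+S+ against -1.67 and -1.25 in V-S- and rose by 1.46 ± 0.08. The count was 2 without V+S+ of clone 16.1, 1 without V-S- of clone 16.1, 8 and 9 without the same fractions of clone 5.1, and 9 with median centring. Acta2, smooth muscle actin, rose by 0.92 ± 0.15, a call lost without V-S- of clone 16.1 (0.77, adjusted p = 0.0622). Of 4 trophoblast markers Krt7 rose by 1.02, Tcfap2c fell by 0.91, and Gata3 and Plac1 did not pass. Of 5 mesoderm genes Foxc1 rose by 0.94 and Twist2 as given, and of 9 neuroectoderm genes Pou3f1, Sox11 and Fabp7 rose by 1.06, 0.96 and 0.64 while En2 and Tubb3 fell by 0.75 and 0.59. The 2 of 5 mesoderm and 3 of 9 neuroectoderm genes that rose are shares near the 33.2% of all named probes. The mesoderm marker Gsc changed by -0.55 and was not called. Of the trophoblast markers 3 were higher from the deposited ratios, from scanner-processed signals and without V+S+ of clone 5.1. The En2 call was lost without either V+S- sample (adjusted p = 0.0507), from the deposited ratios (-0.87, adjusted p = 0.0611) and from scanner-processed signals (-0.90, adjusted p = 0.0691), and the calls for Tcfap2c, En2 and Tubb3 were lost without V+S+ of clone 16.1 (-0.61, -0.46 and -0.48, adjusted p = 0.0595, 0.17 and 0.0737) and without V-S- of clone 16.1 (-0.76, -0.56 and -0.55, adjusted p = 0.0985, 0.191 and 0.0785), and Tubb3 was under 1.5-fold with median centring (-0.43).

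**Figure D3:**
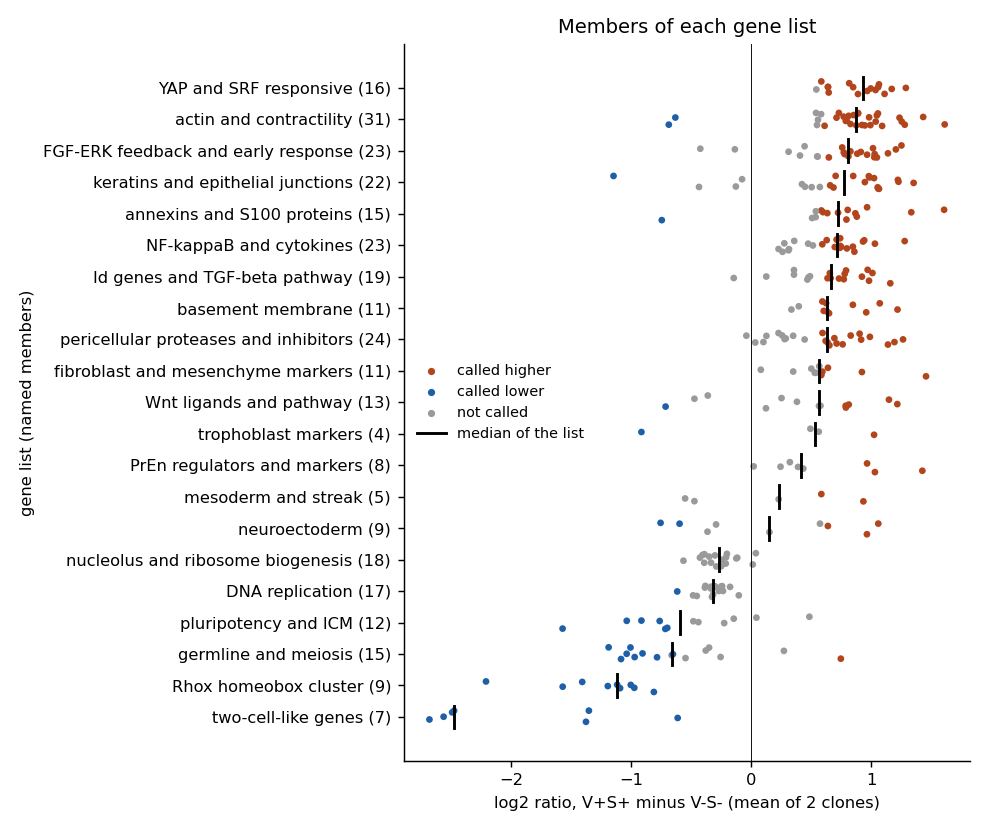
Change of each named member of 21 gene lists, V+S+ minus V-S- as a log2 ratio (mean of 2 clones), with 1 point per gene, the number of named members in brackets and the list median as a black bar. Orange points were called higher, blue points lower and grey points were not called; the actin and YAP lists have the highest medians, at 0.88 and 0.93, and the 2-cell-like list the lowest, at -2.47.

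Genes of the pluripotent state moved down or did not pass. The 7 named markers of undifferentiated ES cells were well above background in all samples, with a mean log2 ratio of 1.33 and 0.87 in V+S+ and 1.48 and 1.55 in V-S-. Of 12 named members 6 were lower, none was higher and 6 did not pass (median -0.59), against 13.6% lower among all named probes. The lower calls fell to 2 without V+S+ of clone 16.1 and to 1 without V-S- of clone 16.1. Nanog, a core pluripotency factor that varies between ES cells, read 0.98 and 0.36 in V+S+ and 1.44 and 1.42 in V-S-, and fell by 0.76 ± 0.15 (SE; adjusted p = 0.0145). Dppa3 (Stella), a maternal factor of early embryos and germ cells, read 1.32 and 0.52 against 1.97 and 1.95 and fell by 1.03 ± 0.18 (adjusted p = 0.00938). Spic, an Ets factor gene, fell by 1.57 ± 0.16, and Tcfap2c, Prdm14 and Dppa2 fell by 0.91, 0.71 and 0.70. Pou5f1 (Oct4) stood apart. It read 2.25 and 1.71 in V+S+ and 1.40 and 1.59 in V-S-, higher in V+S+ in both clones, with a change of 0.85 in clone 5.1 and 0.12 in clone 16.1 (0.49 ± 0.17, adjusted p = 0.0722). With arrays centred on their median Nanog was under 1.5-fold (-0.56) and Pou5f1 was called higher (0.64, adjusted p = 0.0196), as it was without V-S- of clone 16.1 (0.82, adjusted p = 0.0132). The call for Nanog was lost from scanner-processed signals (-0.77, adjusted p = 0.05004), without V+S+ of clone 16.1 (-0.49, adjusted p = 0.0632) and without V-S- of clone 16.1 (-0.63, adjusted p = 0.117), and the latter also held for Dppa3 (-0.89, adjusted p = 0.0797).

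Genes of the germ line and meiosis moved down more often than the 13.6% of all named probes. Of 15 named members 8 were lower and 1 was higher (median -0.66). The lower calls fell to 1 without V+S+ of clone 16.1 and to 2 without V-S- of clone 16.1. Padi6, an oocyte protein, fell by 1.19 ± 0.18 (SE) and the meiotic kinase gene Aurkc by 1.08 ± 0.19. Tex19 and Zp3 fell by 1.00 and 1.04, and Tdrd7, a tudor-domain gene, rose by 0.75 ± 0.09. Aurkc and Padi6 were no longer called without V+S+ of clone 16.1 (-0.78 and -1.02, adjusted p = 0.0581 and 0.0552), nor was Aurkc without V-S- of clone 16.1 (-0.85, adjusted p = 0.0729).

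All 9 named probes of the Rhox cluster, a block of homeobox genes on the X chromosome that is expressed in germ cells and extraembryonic tissue and is often held silent by DNA methylation, were lower in V+S+, with a median of -1.11. In each, both V+S+ samples lay below both V-S- samples, as 26.1% of all probes did. Of all named probes 13.6% were called lower. The probe letters show that these are not 9 separate measurements. The 5 probes for Rhox4 copies overlap on the array, and a stretch of 28 bases shared by them differed at the 2 positions in capitals. Rhox4f and Rhox4g shared a run of 56 of 60 bases.
Rhox4a, bases 6 to 33 of its probe: ttattgcaTctctatTccctaagcattt
Rhox4c, bases 1 to 28 of its probe: ttattgcaActctatTccctaagcattt
Rhox4d, bases 33 to 60 of its probe: ttattgcaTctctatTccctaagcattt
Rhox4f, bases 2 to 29 of its probe: ttattgcaTctctatCccctaagcattt
Rhox4g, bases 2 to 29 of its probe: ttattgcaTctctatCccctaagcattt
The copies fell by 0.81 (Rhox4c) to 1.41 (Rhox4d), and the array cannot tell them apart with confidence. Rhox5, the founding member of the cluster, has a probe that starts ttcaagaattcagcaataaagaggtggatt and shared no long run with the others. It read -0.42 and -1.34 in V+S+ and 1.48 and 1.17 in V-S- and fell by 2.21 ± 0.20 (SE), or 4.61-fold (adjusted p = 0.00154). Rhox2a fell by 1.57 ± 0.14, Rhox9 by 1.19 and Rhox6 by 1.09. All 9 probes were also called lower in each fit that left out 1 sample. All but Rhox5 changed more in clone 5.1, whereas 773 of the 817 lower probes changed more in clone 16.1.

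Among the 21 lists the largest falls were in genes of the 2-cell-like state. This is a rare and passing state of ES cells that turns on transcripts of the embryo's first genome activation. All 7 named members were lower in V+S+, with a median of -2.47, against 13.6% lower among all named probes. A further 7 genes among the 12 largest named falls were on no list. The letters of 3 of these probes are given because the genes belong to repeated families, and each shown stretch is the first 30 bases of the probe.
Zscan4c, chromosome 7: aacatctctgaggacaagaacaattgctat
Tcstv1, chromosome 13: cctgtccgggatcctgtttctgacagttcc
Tcstv3, chromosome 13: ctaagacttgcaattaggggatcttctgtc
Among the probes of 6 of these listed genes and 6 of the unlisted falls, no pair shared a run longer than 12 bases, so these probes, unlike those for Rhox4, read different sequence, although other family members may bind them. Zscan4c, a zinc-finger gene that marks the state and acts on telomeres, read -1.96 and -1.99 in V+S+ and 0.08 and 0.95 in V-S-. It fell by 2.49 ± 0.36 (SE), or 5.61-fold (adjusted p = 0.00513). Tcstv3 and Tcstv1, of the 2-cell-stage variable group, read -0.31 and -0.78, and -0.37 and -0.73, in V+S+. In V-S- they read 1.90 and 2.37, and 1.66 and 2.17. Tcstv3 fell by 2.68 ± 0.38 and Tcstv1 fell by 2.47 ± 0.36. AF067061, a related transcript, had the largest fall of any tested probe. It read 1.69 and 2.16 in V-S- and -0.73 and -1.25 in V+S+ and fell by 2.91 ± 0.39, or 7.52-fold (adjusted p = 0.00412). The probe named Eif1a, a translation initiation factor, fell by 2.56 ± 0.41, Tmem92 fell by 2.39 and B020031M17Rik by 2.09. Pramel6, Obox6 and Tdpoz5 fell by 1.37, 1.35 and 0.61. The predicted genes EG627488 and EG226955 changed by -2.39 and -1.97, Gm428 by -2.01 and the autophagy receptor gene Calcoco2 by -1.87.

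The V-S- samples were the high ones. The mean log2 ratio of the 7 members was 1.10 and 1.55 in V-S- of clones 5.1 and 16.1, 0.72 and 0.13 in V+S-, -0.17 and 0.37 in V-S+ and -0.48 and -0.74 in V+S+. V-S- was highest and V+S+ lowest in each clone, and the 2 other fractions changed order between clones. Of the 7, 4 were called without V+S+ of clone 16.1 and 5 without V-S- of clone 16.1. Without the former the calls for Zscan4c (-2.29, adjusted p = 0.0542), Tcstv1 (-2.24, adjusted p = 0.0559) and Eif1a (-2.22, adjusted p = 0.0701) were lost, as was that for EG226955 (-1.82, adjusted p = 0.0558). Calcoco2 (-1.56, adjusted p = 0.0564) and Eif1a (-2.13, adjusted p = 0.0573) were not called without V-S- of clone 16.1, nor was Calcoco2 (-1.47, adjusted p = 0.0566) without V+S+ of that clone.

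**Figure D4:**
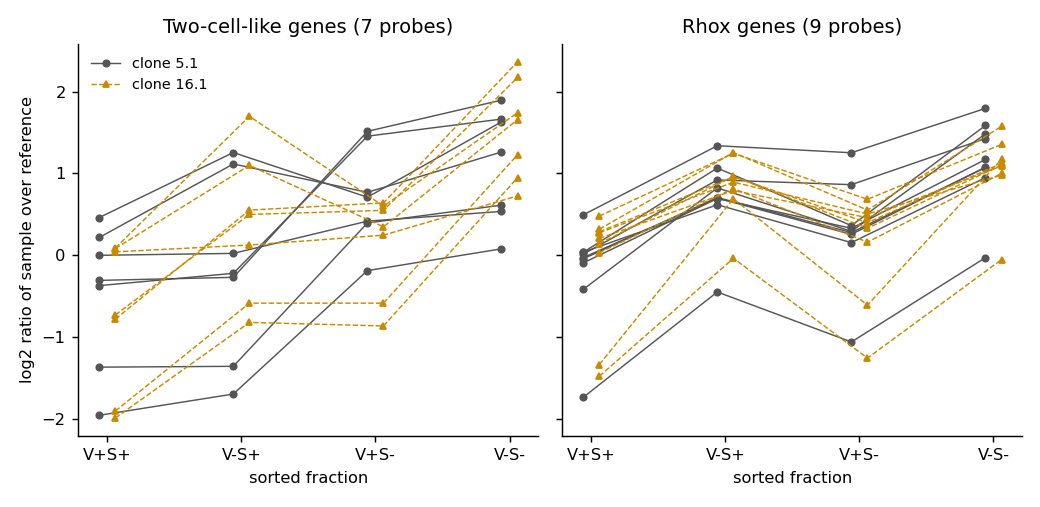
Log2 ratio of sample over reference in the 4 sorted fractions for the 7 probes of 2-cell-like genes (left) and the 9 Rhox probes (right); each line is 1 probe in 1 clone, grey circles for clone 5.1 and gold triangles for clone 16.1. In both panels each line lies lower at V+S+ than at V-S-, and the mean of the 7 left-hand probes is highest in V-S-, at 1.10 and 1.55.

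Few genes of DNA replication and of the nucleolus were called. In each of the 17 named replication genes both V+S+ samples lay below both V-S- samples, as 26.1% of all probes did. Of the 17, 14 had an adjusted p under 0.05, as did 8069 of the 29484 probes tested, but only Ung, which cuts uracil from DNA, passed 1.5-fold and fell by 0.61 ± 0.09 (SE; adjusted p = 0.00453). The Ung change was under 1.5-fold with median centring (-0.43) and without V+S+ (-0.50) or V-S- (-0.55) of clone 16.1. The median of the list was -0.32. Of 18 nucleolar genes none was called, 10 had an adjusted p under 0.05 and the median was -0.27. With median centring the list medians were -0.15 and -0.10, with none called.

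The other diagonal of the sort, V+S- against V-S+, was fitted in the same way. It uses other arrays of the same clones and slides. Venus changes in the same direction as before and SSEA-1 in the opposite one, so this pair is no repeat of V+S+ against V-S-. There 2614 probes were higher and 891 were lower. The 1402 probes that rose had a median change of 0.94 in that pair, and 1158 of them were called higher there and 12 lower. The probes lower in V+S+ had a median of -0.57 there, and 362 of the 817 were called lower and 3 higher. The YAP and SRF list had medians of 0.93 and 1.04 in the 2 pairs, the actin list 0.88 and 0.99, and the pluripotency list -0.59 and -0.75. The PrEn list had 0.41 and 1.17 and the fibroblast list 0.57 and 1.44.

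The difference between the 2 changes was tested for every probe. In its terms it equals both S+ fractions together minus both S- fractions together. It therefore reads SSEA-1 status over the whole sort and is not particular to V+S+ against V-S-. The V+S+ against V-S- change was more positive than the other for 124 probes (0.421%) and more negative for 459 (1.56%). Gata6 and Sox7 were among the latter, with differences of -0.88 (adjusted p = 0.0396) and -1.38 (adjusted p = 0.0295). Sox7 read 1.23 and 1.78 in V+S- against -0.32 and -0.20 in V-S+. Among named probes the largest negative differences were in the 2-cell-like genes and AF067061. Zscan4c changed by -2.49 in the first pair and 0.73 in the second, a difference of -3.22 ± 0.51 (SE; adjusted p = 0.0339), and Tcstv3 differed by -3.61 and AF067061 by -3.84. Among named probes called higher in the first pair, the largest positive difference was in Raly, which encodes an RNA-binding protein. Raly read 0.95 and 0.98 in V+S+, -0.88 and -0.04 in V-S-, -0.88 and -0.68 in V+S- and 0.34 and 0.28 in V-S+, so S+ samples lay above S- samples (difference of 2.51, adjusted p = 0.026). Rbbp4, a histone chaperone gene, differed by 2.21, 6230416J20Rik by 2.00, BC017612 by 1.71 and Stk32c by 1.70. The rise of Rbbp4 in V+S+ over V-S- (0.70, adjusted p = 0.0464) was lost without any one of the samples except V-S- of clone 16.1, with adjusted p from 0.0563 to 0.172 and a change of 0.29 without V-S- of clone 5.1. It was also lost from the deposited ratios (adjusted p = 0.11), scanner-processed signals (adjusted p = 0.122), the second scan (adjusted p = 0.0565) and the V+S+ and V-S- samples alone (adjusted p = 0.0574). The rise of 6230416J20Rik was not called without V+S+ of clone 16.1 (1.18, adjusted p = 0.0508). Pou5f1 differed by 1.49 (adjusted p = 0.033) and Fut9 by 1.02 (adjusted p = 0.0201). The number of such probes depended on each array: 0 were called without V-S+, V+S+ or V+S- of clone 5.1 or without V+S- of clone 16.1, 16 without V-S- of clone 5.1, 39 without V-S+ of clone 16.1, 192 without V-S- of clone 16.1 and 744 without V+S+ of clone 16.1. From the scanner software's own processed signals 0 were called, with 5949 at an unadjusted p under 0.05.

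**Figure D5:**
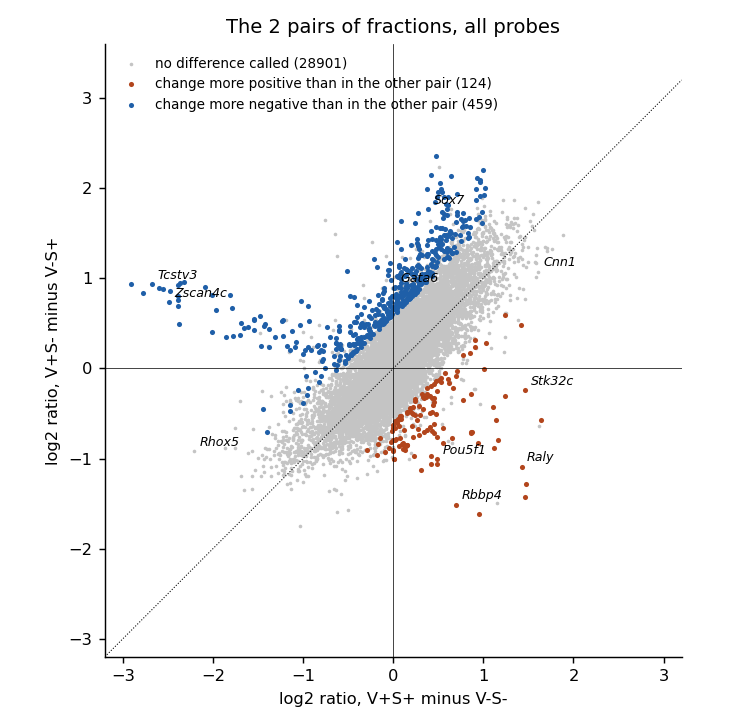
Change of each tested probe as a log2 ratio in V+S+ minus V-S- (horizontal) and in V+S- minus V-S+ (vertical), with equal change on the dotted line. Orange points are the 124 probes whose first change was more positive than the second, blue points the 459 whose first change was more negative, grey points the rest; Zscan4c and Tcstv3 lie at the upper left, with changes of -2.49 and -2.68 in the first pair.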

How the data were processed

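RNA of 8 sorted samples (4 fractions of 2 clones) was measured on 2-colour Agilent arrays, with Cy3 for the sample and Cy5 for a reference pool and no dye swap, so dye effects cancel only between samples. Per the file headers, the authors scanned each array 2 times and extracted spot intensity with Agilent Feature Extraction 9.5.1.1; the deposited log10 value table, used as an alternative, holds ratios for 25164 probes. Here Cy3 and Cy5 intensity was background-corrected (normexp, offset 50) and loess-normalised in limma 3.58.1 (R 4.3.3), scans were averaged, and probes with Cy3 clearly above background in each scan of 1 fraction or more were kept. One limma fit over all 8 samples had fraction and clone as terms, with Benjamini-Hochberg adjustment. Pairing by clone comes from the labels: deviations of the fractions from their means correlated by clone with r of 0.588 to 0.811 in all 6 pairs of fractions, which rests on 2 clones. Genes named were the 12 largest rises and falls, up to 2 each way from each of 21 lists (all where 4 or fewer were called), 8 genes the study discusses and the 5 largest differences between pairs each way; other list members are given as examples, and 1 gene that the rule selects is not reported here. The members and lists were chosen with earlier results of these data known. The fit was tested on simulated data. No spot was saturated, and the number of arrays limits precision. Alternatives covered the clone term, background correction, normalisation, filter, scan and each sample left out.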

Additional observations from a re-analysis of the deposited data

Results flagged for a closer look

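Gata6, a transcription factor of the primitive endoderm, had changes of opposite sign in the clones, both smaller than the SD of 0.074 to 0.0883 between repeat scans of an array, so no movement is shown in either. Its V+S+ minus V-S- change was -0.0148 in clone 5.1 and 0.0582 in clone 16.1 on the log2 scale. The difference between the clones was not tested, since each clone has 1 sample per fraction.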

How the results depend on the processing

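Without the replicate block (no pairing by clone) and in the unmoderated test, 0 probes were called higher, 0 lower and 0 for a difference between the pairs, against 1402, 817 and 583. Scanner-processed signals gave 1878 higher, 1033 lower and 0 differing, the authors' log10 values 1450, 776 and 0, and Cy3 alone 1344, 972 and 315. Without a fold threshold 4804 were higher, 3265 lower and 896 differing. Median centring gave 2054 higher and 572 lower. Leaving out 1 sample gave 859 to 1905 higher, 211 to 1262 lower and 0 to 744 differing, and a Gata6 change of -0.0585 to 0.102 (-0.01 without V-S- of clone 5.1). The called probes measured kept their direction in each alternative, except 1 of 1402 with scanner-processed signals. The cause of these shifts was not tested.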
